A study of Saccharomyces cerevisiae with 6 samples.

Results

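The genes described here are those of amino acid biosynthesis that belong to the regulon of Gcn4, together with GCN4 itself, in budding yeast with and without the prion [GAR+]. They were taken from a list of 39 genes, named through the array platform's annotation, and 38 of them had a probe set of their own, 1 for each gene, out of 5656 genes with a tested probe set. ARG5,6, which encodes a precursor of a pair of arginine enzymes, had none and is not analysed here. The list was drawn up by pathway and not by measured values, although earlier results of these data were known when it was chosen.

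Gcn4 is a transcription activator of the bZIP family. When an amino acid runs short, uncharged tRNA activates the kinase Gcn2, general translation initiation is slowed, and translation of the GCN4 mRNA rises because its upstream open reading frames are bypassed. Gcn4 then raises transcription of biosynthetic genes in many pathways at once, a response known as general amino acid control. Control of Gcn4 is thus largely translational, and the level of the GCN4 mRNA need not follow that of the protein.

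There were 6 cultures of the laboratory strain W303, 3 of them [gar-] and 3 [GAR+], each hybridised to its own Affymetrix array. [GAR+] is a protein-based element, inherited without a change in DNA, and [gar-] cells lack it. Both kinds were grown in complete synthetic medium with 2% glucose to late exponential phase at an OD600 of about 0.8, and the labels name no other difference between them. Neither the amino acid content of the medium nor a genotype beyond the strain name is given there. As background, W303 strains commonly carry mutations in LEU2, HIS3 and TRP1. The genotype of these cultures was not tested.

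The prion marker HXT3, a glucose transporter gene, read 3559 to 4404 on the [gar-] arrays and 42.8 to 75.4 on the [GAR+] arrays, so the groups did not overlap. These readings are from the same arrays and are not a separate check of the groups. The arrays of the cultures numbered 2 correlated least with the others, at most 0.977 for [gar-] culture 2 and 0.975 for [GAR+] culture 2 over the tested probe sets, against 0.990 to 0.991 for the highest correlation of each other array. The 3′ to 5′ signal ratio of the actin control was 1.17 and 1.04 on these arrays and 1.29 to 1.64 on the other 4. The ratios of the other controls did not set both arrays apart in the same way. That of TBP was 1.85 on [gar-] culture 2 and 3.41 on [GAR+] culture 2, against 2.82 to 2.98 on the others, and that of SRB4 was 9.72 and 5.95, against 4.32 to 7.41. Where the larger differences of the listed genes rest on an array numbered 2, values without it are given. The part of array quality in them was not tested.

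Levels are given as signal after quantile normalization, in arbitrary units, and differences as [GAR+] minus [gar-] on the log2(signal + 16) scale, where 1 is a doubling for bright genes and dim genes are understated. Each probe set was tested with limma and called at a Benjamini-Hochberg adjusted p under 0.05 over all 6504 tested probe sets.

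The comparison of [GAR+] with [gar-] asked whether the regulon differs with the prion. None of the 38 genes passed, and the smallest adjusted p among them was 1.00, where 0.0154% of all tested probe sets passed. At an unadjusted p under 0.05 there were 2 members, SER33 and ARG1, both lower in [GAR+], in a background of 2.98%. With the culture number as a block these were 6, SER33, LEU4, ARG1, ILV2, ARG4 and SNZ1, against 6.78% of all probe sets, and 0 passed (smallest adjusted p = 0.735). The differences ran from -0.71 for LEU4 to 0.53 for TRP2, and 26 of the 38 lay below 0. Of all 6504 tested probe sets 3138 lay below 0. The median of the members was -0.06, that of all tested probe sets 0.01. As the values are relative within an array, a change in the total RNA per cell would not be seen in them.

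The intervals bound how large a difference these arrays leave room for. For 35 of the 38 genes the 95% confidence interval lay within 2-fold in either direction, and for 22 within 1.5-fold, on the scale used. The shares over all tested probe sets were 96.1% and 61.3%. LEU4, TRP2 and SER3 were the genes whose intervals reached beyond 2-fold. All these intervals are from the fit without the culture number. With the number as a block the standard errors of LEU4, TRP2 and SER3 were 0.26, 0.38 and 0.21, against 0.44, 0.40 and 0.45 without it. Only LEU4 had an estimated difference of at least 1.5-fold. With each array left out in turn, the sign of the difference changed at least once for 16 of the 38 members, and for 22 it did not.

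**Figure D1:**
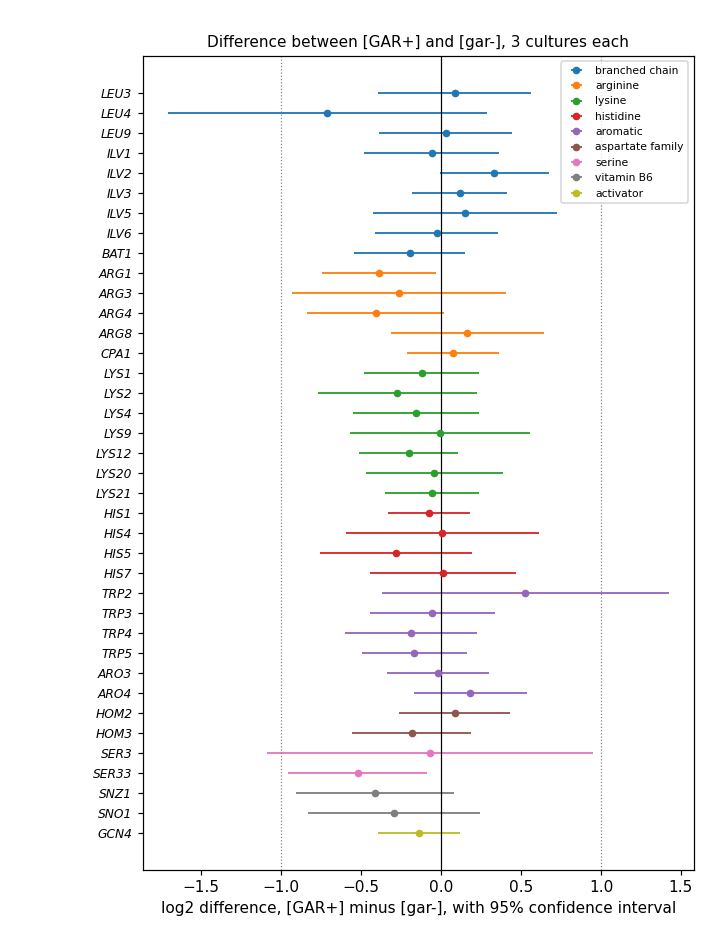
Log2 difference of [GAR+] minus [gar-] for each of the 38 genes (point), coloured by pathway, 3 cultures per group. Bars are 95% confidence intervals from limma, fitted without the culture number. Dotted lines mark 2-fold. The intervals of ARG1 and SER33 exclude 0 before adjustment, and those of LEU4, TRP2 and SER3 cross a dotted line.

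GCN4, the activator gene, read 4571, 4823 and 3959 in [gar-] cultures 1, 2 and 3, and 4148, 4204 and 3750.2 in [GAR+] cultures 1, 2 and 3. The ranges overlapped. The group means were 4451 ± 444 for [gar-] and 4034 ± 247 for [GAR+] (SD, n = 3). This gave a difference of -0.14 with a 95% confidence interval of -0.39 to 0.12 and an adjusted p of 1.00 in limma. At each culture number the [GAR+] array was the lower, by 0.14, 0.20 and 0.08. The sign turned without between-array normalization, to 0.04, where the median of all probe sets was 0.16.

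The branched-chain pathway makes isoleucine, valine and leucine in mitochondria and cytosol, and 9 of its genes were measured. Its median difference was 0.03, with 4 genes below 0 and 0 passing. With 1 array left out the median ran from -0.08 without [gar-] culture 3, with 6 genes below 0, to 0.13 without [gar-] culture 2, with 2 below 0. Without [GAR+] culture 2 it was -0.07, with 7 below 0. LEU4 encodes the main α-isopropylmalate synthase, which commits carbon to leucine. It read 2503, 1728 and 2416 in [gar-] cultures and 2148, 540.5 and 2007 in [GAR+] cultures. [GAR+] culture 2 alone stood low, and the other arrays lay within 1728 to 2503. In the deposited signals, before normalization, LEU4 was likewise low there, at 325 against 3361 and 2022 in [GAR+] cultures 1 and 3. Those signals do not share a scale. Their mean without 2% at each end was 192 on that array, against 500 and 311, so part of the gap is array scale. The difference was -0.71 with a standard error of 0.44 (unadjusted p = 0.142, adjusted p = 1.00 in limma), and without [GAR+] culture 2 it was -0.07.

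LEU9 encodes the second isopropylmalate synthase, a paralogue of LEU4. It did not share the low value of its paralogue, since it read 402, 520 and 365 in [gar-] and 444, 489 and 373 in [GAR+], with the cultures numbered 2 highest in both groups. Its difference was 0.03 (95% confidence interval -0.39 to 0.44). LEU3, the gene of the activator that responds to isopropylmalate, the product of these enzymes, was dim, at 80.7 to 125 in [gar-] and 93.6 to 144 in [GAR+]. Its highest reading was on the array where LEU4 was lowest.

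ILV2 encodes the catalytic subunit of acetolactate synthase, the shared step of valine, leucine and isoleucine synthesis. It read 1186, 1134 and 1216 in [gar-] and 1224, 1626 and 1651 in [GAR+]. All 3 [GAR+] values lay above the [gar-] values, although [GAR+] culture 1 did so by a small margin, and ILV2 was the only member in that position, where 4.41% of all tested probe sets were. The difference was 0.33 with a 95% confidence interval of -0.01 to 0.67 and did not pass (unadjusted p = 0.0546, adjusted p = 1.00 in limma). ILV6, which encodes the regulatory subunit of the same enzyme, gave -0.03, with means of 2311 ± 479 in [gar-] and 2253 ± 327 in [GAR+] (SD, n = 3).

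ILV5, the gene of acetohydroxyacid reductoisomerase, had the same order of cultures in both groups. It read 786, 1427 and 1154 in [gar-] and 875, 1551 and 1300 in [GAR+], with culture 1 lowest and culture 2 highest in each group. ILV1, encoding threonine deaminase at the entry to isoleucine synthesis, gave -0.06, ILV3, encoding the dihydroxyacid dehydratase, 0.12, and BAT1, encoding the mitochondrial branched-chain aminotransferase, -0.20. In BAT1 the 3 [GAR+] arrays lay within 2204 to 2480, inside the [gar-] range of 2199 to 3288. The BAT1 difference was -0.06 without [gar-] culture 2 and -0.01 without both arrays numbered 2.

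**Figure D2:**
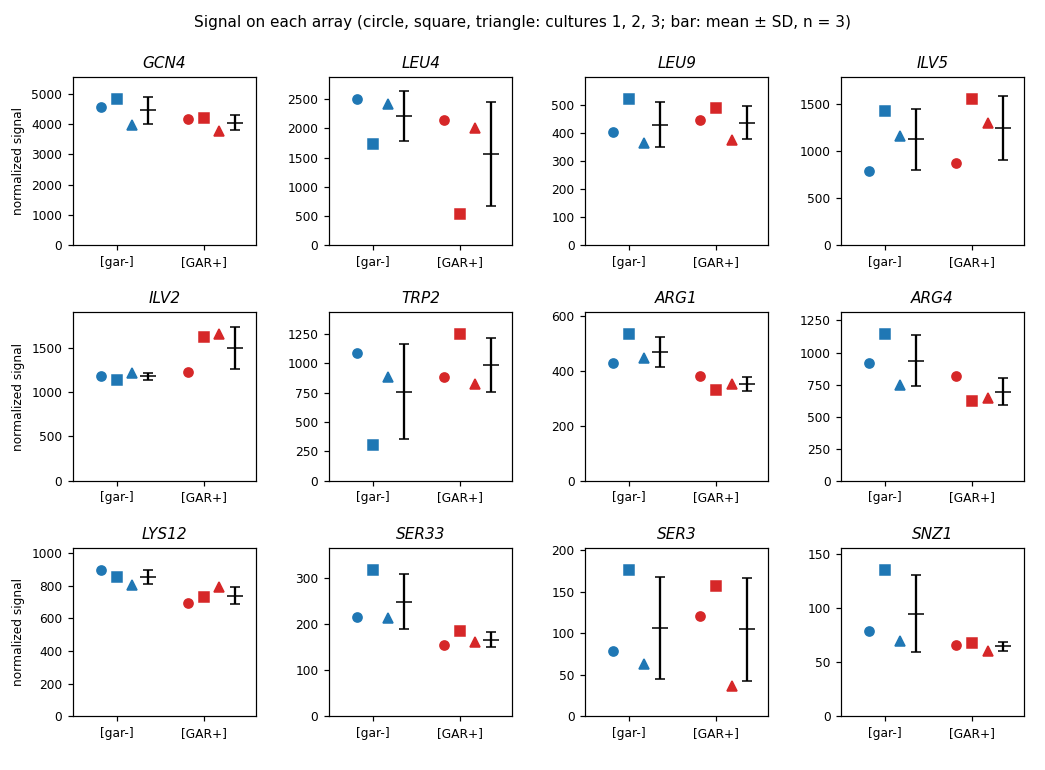
Normalized signal of 12 genes on each array, with circle, square and triangle for cultures 1, 2 and 3 and the mean ± SD of each group (n = 3) as a bar. The low points of LEU4 (540.5, [GAR+] culture 2) and TRP2 (305, [gar-] culture 2) stand apart from the other arrays, and the groups do not overlap for ARG1, LYS12, SER33 and SNZ1, lower in [GAR+], and ILV2, higher.

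Arginine is made from glutamate through ornithine and citrulline. In the 5 genes measured the median difference was -0.26, with 3 below 0 and 0 passing. Without [GAR+] culture 2 that median was 0.03, without [gar-] culture 3 it was -0.02, and without both arrays numbered 2 it was -0.14. ARG1 encodes argininosuccinate synthetase. It read 428, 532 and 445 in [gar-] and 379, 329 and 349.7 in [GAR+], and the groups did not overlap. Its difference was -0.39 with a 95% confidence interval of -0.75 to -0.03 (unadjusted p = 0.0352, adjusted p = 1.00 in limma), and it was -0.25 without both arrays numbered 2. ARG4 encodes argininosuccinate lyase, the enzyme after ARG1's. It read 922, 1141 and 743 in [gar-] and 817, 622 and 645 in [GAR+], a difference of -0.41 (95% confidence interval -0.84 to 0.02). Here the groups overlapped, because [GAR+] culture 1 lay above [gar-] culture 3. Without [gar-] culture 2 the ARG4 difference was -0.26, and without both arrays numbered 2 it was -0.19.

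ARG3, the ornithine carbamoyltransferase gene, was dim and read 58.9, 50.4 and 101 in [gar-] and 56.0, 30.8 and 84.2 in [GAR+]. Culture 3 was highest and culture 2 lowest in both groups. At each culture number ARG1, ARG3 and ARG4 were lower in [GAR+], most at number 2, where the differences were -0.67, -0.51 and -0.86. At number 1 they were -0.17, -0.06 and -0.17, and at number 3 they were -0.33, -0.22 and -0.20. The remaining pair had differences above 0. ARG8, encoding acetylornithine aminotransferase, gave 0.16 at 43.4 to 88.7 on the 6 arrays, and -0.03 without [gar-] culture 2, its lowest array. CPA1, encoding the small subunit of the arginine-specific carbamoyl phosphate synthetase, gave 0.08 and lay within 1018 to 1134 on all arrays.

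Lysine is made in yeast by the α-aminoadipate pathway. All 7 measured genes lay below 0, with a median of -0.12 and a range from -0.27 to -0.01, and 0 passed. Of all 6504 tested probe sets 3138 lay below 0. With 1 array left out the median ran from -0.21 without [gar-] culture 3 to -0.07 without [gar-] culture 2. In both those fits, and without both arrays numbered 2, 6 of the 7 genes lay below 0. At all 3 culture numbers 3 of the 7 were lower in [GAR+] (background 13.5%). Relative to the median of all probe sets, 7 of 7 were lower after median scaling and 6 of 7 without between-array normalization, where 2 of 7 lay below 0 in absolute terms. LYS12, the homoisocitrate dehydrogenase gene, read 898, 857 and 808 in [gar-] and 698, 728 and 795 in [GAR+]. These groups did not overlap, although the nearest arrays, both numbered 3, differed by little. Its difference was -0.20 with a 95% confidence interval of -0.51 to 0.11 and an unadjusted p of 0.175.

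LYS2, encoding α-aminoadipate reductase, gave the largest lysine value, -0.27 (95% confidence interval -0.77 to 0.23). It read 505, 321 and 363 in [gar-] and 412, 296 and 267 in [GAR+], with culture 1 highest in each group. Without [gar-] culture 1 the LYS2 difference was -0.09, and without [GAR+] culture 1 it was -0.45. LYS20 and LYS21 are isoenzyme genes of homocitrate synthase, the first step. LYS20 read 2199, 1302 and 1525 in [gar-] and 1729.9, 1591 and 1454 in [GAR+], a difference of -0.04 that was 0.17 without [gar-] culture 1 and -0.20 without [gar-] culture 2. LYS21 read 1038, 1124 and 1015 in [gar-] and 1042, 1051 and 961 in [GAR+], a difference of -0.06. A further probe set, which the annotation assigns to both LYS20 and LYS21, averaged 1304 ± 53.3 over the [gar-] arrays and 1322 ± 29.7 over the [GAR+] arrays (SD, n = 3). That difference, 0.02, had the opposite sign. How much of the signal of these paralogues is shared is uncertain. LYS4, the homoaconitase gene, gave -0.16, and LYS1 and LYS9, which encode the saccharopine dehydrogenases of the last steps, gave -0.12 and -0.01. For LYS9 the value was 0.29 without [GAR+] culture 2.

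Histidine synthesis was represented by 4 genes with a median of -0.03, 2 of them below 0, and -0.14 to 0.02 with 1 array left out. HIS1 encodes the first enzyme, ATP phosphoribosyltransferase, and read 2838, 3052 and 2873 in [gar-] and 2518, 2873 and 2941 in [GAR+], a difference of -0.07 (95% confidence interval -0.33 to 0.18). HIS4, a trifunctional enzyme gene and a classic Gcn4 target, read 1225, 969 and 874 in [gar-] and 1360.2, 1216 and 636 in [GAR+]. Culture 1 was highest and culture 3 lowest in both groups, and the group difference was 0.01. HIS5, the histidinol-phosphate aminotransferase gene, read 191, 255 and 256 in [gar-] and 202, 142 and 232 in [GAR+], a difference of -0.28 that was -0.10 without [GAR+] culture 2 and -0.03 without both arrays numbered 2. HIS7, encoding the glutamine amidotransferase step, gave 0.01.

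The aromatic genes lead from the shikimate pathway to tryptophan. The 6 measured had a median of -0.04, with 4 below 0. TRP2 encodes anthranilate synthase, the first enzyme committed to tryptophan. It read 1090, 305 and 879 in [gar-] and 879, 1245 and 826 in [GAR+]. [gar-] culture 2 alone stood low, and [GAR+] culture 2 was the highest of the 6. The deposited signals showed the same low array, with 280 against 1047 and 710. The difference of 0.53 (standard error 0.40, unadjusted p = 0.218, adjusted p = 1.00 in limma) turned to -0.02 without [gar-] culture 2 and to -0.20 without both arrays numbered 2.

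TRP3, which encodes the partner subunit of anthranilate synthase, did not share that low value and lay within 231 to 301 on the 6 arrays, with a difference of -0.05. TRP4, encoding anthranilate phosphoribosyltransferase, read 372, 515 and 395 in [gar-] and 366, 428 and 321 in [GAR+], a difference of -0.19 with the [GAR+] array lower at each number. Without [gar-] culture 2 it was -0.05. TRP5, the tryptophan synthase gene, gave -0.17, with -0.01, -0.48 and -0.02 at numbers 1, 2 and 3, and -0.01 without both arrays numbered 2. The isoenzyme genes of DAHP synthase, where the shikimate pathway begins, gave -0.02 for ARO3 and 0.18 for ARO4. ARO3, whose enzyme is inhibited by phenylalanine, read 1661, 1683 and 1317 in [gar-] and 1516, 1621 and 1437 in [GAR+]. ARO4, whose enzyme is inhibited by tyrosine, read 1378, 1054 and 1346 in [gar-] and 1529, 1513 and 1242 in [GAR+]. Both overlapped between the groups. The ARO4 difference was 0.06 without [gar-] culture 2 and 0.02 without both arrays numbered 2, and that of ARO3 ran from -0.13 to 0.04 with 1 array left out. ARO4 and HIS7 are neighbours in the gene table of assembly R64, and both read lowest in [gar-] culture 2 among the [gar-] arrays.

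HOM3 and HOM2 encode aspartate kinase and aspartate semialdehyde dehydrogenase, the opening steps towards threonine and methionine. HOM3 read 477, 546 and 413 in [gar-] and 429, 449.8 and 376 in [GAR+], a difference of -0.18 that was -0.09 without [gar-] culture 2. HOM2 read 1321, 1844 and 1422 in [gar-] and 1506, 1747 and 1577 in [GAR+], a difference of 0.09 that was 0.23 without [gar-] culture 2 and -0.01 without [gar-] culture 1. In both genes culture 2 was the highest of each group.

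SER3 and SER33 are paralogues for 3-phosphoglycerate dehydrogenase, the first enzyme of serine synthesis from a glycolytic intermediate. Culture 2 was highest in both groups for both genes, and only [GAR+] cultures 1 and 3 were ordered differently. SER33 read 216, 317 and 212 in [gar-] and 153, 184 and 160.4 in [GAR+], and the groups did not overlap. Its difference was -0.52, with a 95% confidence interval of -0.95 to -0.09, the smallest unadjusted p of the members (0.0239, or 0.00676 with the culture number as a block) and an adjusted p of 1.00, or 0.735 blocked. Leaving out 1 array in turn kept it between -0.62 and -0.34. SER3 is known to be repressed by transcription of the non-coding RNA SRG1 across its promoter when serine is present. It read 79.0, 177 and 62.3 in [gar-] and 121, 158 and 36.2 in [GAR+]. Culture 2 was highest and culture 3 lowest in both groups, and the difference was -0.07 with an interval of -1.09 to 0.95. That interval is from the fit without the culture number. With the number as a block the standard error was 0.21, against 0.45 without it.

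SNZ1 and SNO1 encode the subunits of the enzyme that makes pyridoxal phosphate, the vitamin B6 cofactor of aminotransferases. The genes are neighbours in the gene table, and both are known to be induced when growth slows. SNZ1 read 78.3, 135 and 69.8 in [gar-] and 66.0, 67.2 and 59.9 in [GAR+], with no overlap between groups and a difference of -0.41 that was -0.16 without [gar-] culture 2. SNO1 read 20.5, 48.4 and 25.8 in [gar-] and 13.0, 27.2 and 26.4 in [GAR+]. On both arrays numbered 1 that is below the highest of 16 non-yeast or antisense control probe sets, 27.6 and 18.8. Both genes were highest in [gar-] culture 2, and SNO1 was the only member with a mean signal under 50. The SNO1 difference was -0.29, and -0.05 without [gar-] culture 2.

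Counted over the regulon, the groups did not overlap for 4 members that were lower in [GAR+], ARG1, LYS12, SER33 and SNZ1, against a background of 4.44%, and for ILV2 alone in the other direction. Within culture numbers, 13 of 38 members were lower in [GAR+] at all 3 numbers, where 13.5% of all tested probe sets were, and 3 were higher at all 3 (background 15.4%). The 13 were LEU4, ARG1, ARG3, ARG4, LYS2, LYS4, LYS12, TRP4, TRP5, HOM3, SER33, SNZ1 and GCN4. The higher ones were ILV2, ILV5 and CPA1, while ILV3 was tied at number 1 and higher at numbers 2 and 3. At numbers 1, 2 and 3 taken singly, 25, 25 and 23 of the 38 lay below 0, with medians of -0.14, -0.10 and -0.07. The medians over all tested probe sets were 0.001, 0.003 and 0.01.

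**Figure D3:**
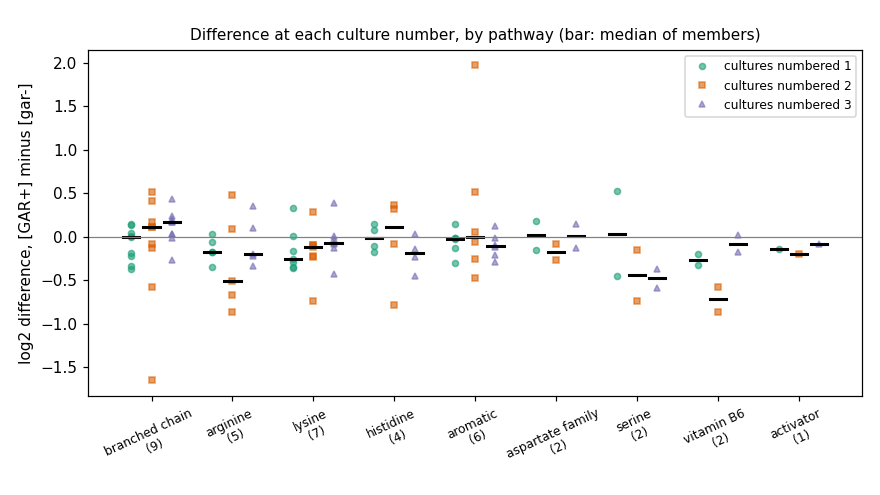
Log2 difference of [GAR+] minus [gar-] at culture numbers 1, 2 and 3 (circle, square, triangle) for each member, by pathway with the number of genes in brackets, with bars at the median of the members. The outlying squares are LEU4 at -1.65 and TRP2 at 1.97, both at number 2.

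The second comparison asked whether same-numbered cultures of both kinds sat together. In limma's F-test for the culture number, with the group in the same fit, 0 of the 38 members passed (smallest adjusted p = 0.0743), where 0.646% of all tested probe sets did. At an unadjusted p under 0.05 there were 8, ILV5, SER3, ARG3, LEU4, HIS4, ILV6, LYS2 and SNO1, against a background of 16.1%. The smallest belonged to ILV5, where number 2 exceeded number 1 by 0.83 (adjusted p = 0.0743), and to SER3, where number 3 minus number 2 was -1.52 (adjusted p = 0.0790). For ARG3 number 3 exceeded number 2 by 0.96 (adjusted p = 0.107). For HIS4 number 3 minus number 1 was -0.78 (adjusted p = 0.176).

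These calls depended on which probe sets and arrays were in the fit, and so did those over all probe sets. Among probe sets of mean signal of at least 50, ILV5 and SER3 passed at adjusted p values of 0.0483 and 0.0496, where 2.07% of the probe sets so filtered passed. Without [gar-] culture 2 there were 6 members that passed, ARG3, HIS4, ILV5, LEU4, LYS9 and SER3, against 10.2% of all probe sets. Without [GAR+] culture 2 there were 7, ARG3, HIS4, ILV5, LYS2, LYS20, SER3 and TRP2, against 7.81%. In each of these fits number 2 is represented by a single array, and the test assumes that it varies like the others. Without [gar-] culture 1 there were 2, LEU4 and SER3 (background 1.01%), and without [GAR+] culture 1 SER3 alone (background 0.8%). LEU4 passed only where [GAR+] culture 2, its low array, was kept, and TRP2 only where [gar-] culture 2, its low array, was the array left of its number. Without both arrays numbered 2, ILV5 and HIS4 passed between numbers 1 and 3 (background 1.21%).

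**Figure D4:**
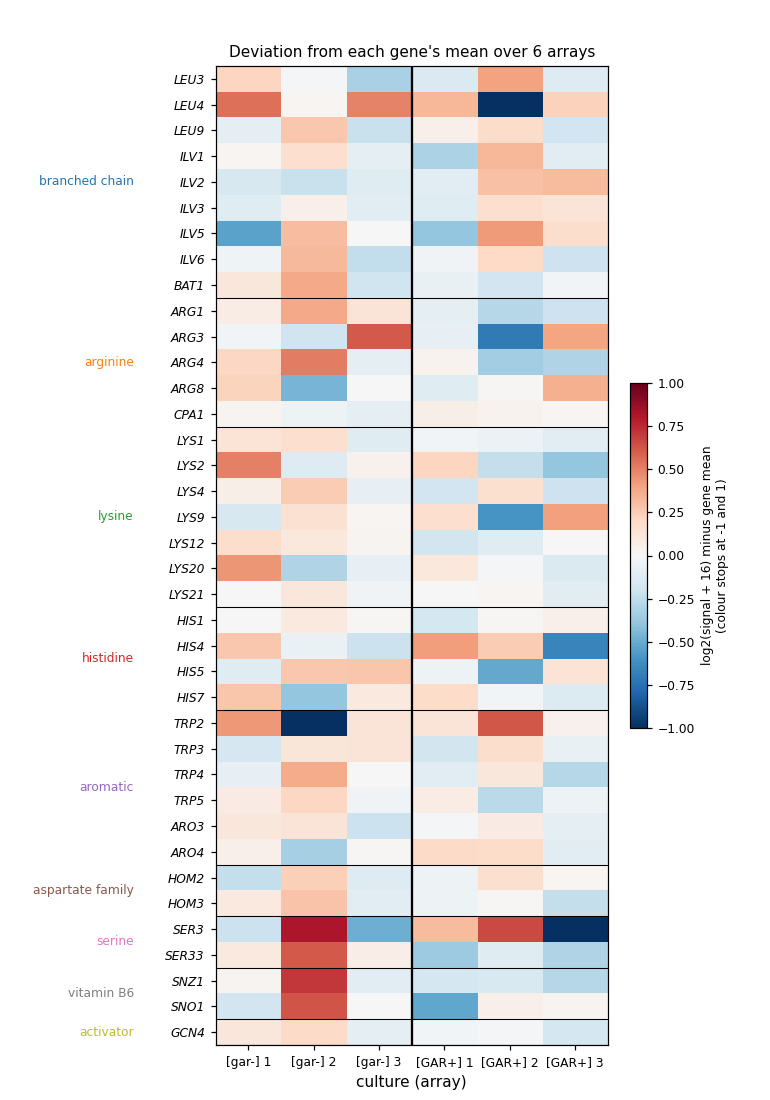
Deviation of each gene's log2(signal + 16) from its mean over the 6 arrays, genes by pathway in rows and cultures in columns, with the thick line between [gar-] and [GAR+]. The darkest blue cells are LEU4 in [GAR+] culture 2, TRP2 in [gar-] culture 2 and SER3 in [GAR+] culture 3.

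The members differed widely in how much they varied within groups. Of 4838 tested probe sets with a mean signal of at least 50, 0.599% had a larger within-group standard deviation than SER3 (0.81 on the log2 scale), 0.620% than LEU4 (0.81) and 1.32% than TRP2 (0.71). ARG3, HIS4 and ILV5 followed with 5.29%, 7.44% and 8.58%. At the other end 99.3% varied more than CPA1 (0.05), 97.2% more than LYS21 (0.07) and 86.7% more than GCN4 (0.12). The median over the members was 0.23, and over the 4838 probe sets 0.22.

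In [gar-] culture 2, 11 of the 38 members lay below their own mean over the 6 arrays, and the median deviation was 0.16. On the other [gar-] arrays, numbered 1 and 3, the median deviations were 0.05 and -0.06. They were -0.05, 0.02 and -0.10 on the [GAR+] arrays in order of number. On [gar-] culture 2 the largest upward deviations were those of SER3, SER33, SNZ1 and SNO1, at 0.81, 0.62, 0.71 and 0.63, whereas TRP2, ARG8, HIS7 and ARO4 deviated by -1.35, -0.46, -0.39 and -0.33. Across all tested probe sets the median deviation on [gar-] culture 2 was 0.03. On [GAR+] culture 2 the pathways differed, with a median deviation of 0.20 for the branched-chain genes and -0.29 for the arginine genes.

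The same pathways hold other genes outside the list, and the proteins that control translation of GCN4 and stability of Gcn4 were examined beside them. Of 59 such genes 58 were measured, and 0 passed in the group comparison, with 1 at an unadjusted p under 0.05 (background 2.98%). Their median difference was 0.01, with 27 below 0 and 31 above. The largest values belonged to GDH3, a glutamate dehydrogenase isoenzyme gene, at -0.47, to GCD2, encoding a subunit of the initiation factor eIF2B, at -0.41, to AAT1, the mitochondrial aspartate aminotransferase gene, at 0.32, and to SER1, the phosphoserine aminotransferase gene, at -0.29. GDH3 read 79.4, 144 and 68.1 in [gar-] and 69.5, 74.1 and 46.9 in [GAR+], with [gar-] culture 2 alone standing high. Its difference was -0.16, -0.83 and -0.42 at numbers 1, 2 and 3. GCD2 read 229, 266 and 250 in [gar-] and 194, 166 and 190 in [GAR+], without overlap (unadjusted p = 0.0285, adjusted p = 1.00 in limma). SER1, the step after SER3 and SER33, read 661, 688 and 787 in [gar-] and 752, 282 and 905 in [GAR+]. As in LEU4, its low value was on the array of [GAR+] culture 2. The SER1 difference was -1.24 at number 2, but above 0 at numbers 1 and 3, at 0.18 and 0.20.

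GCN2, the kinase gene of the response, gave -0.003, and PCL5, a Gcn4 target whose cyclin takes part in the degradation of Gcn4, gave -0.27 with a 95% confidence interval of -0.85 to 0.31. Of the 58 genes only SHM2 passed the F-test for the culture number, where 0.646% of all tested probe sets did. SHM2 is the cytosolic serine hydroxymethyltransferase gene and is named here after its value was seen. Whether it passes with other filters or arrays was not tested. It read 321, 436 and 742 in [gar-] and 373, 447 and 777 in [GAR+], so number 3 exceeded number 1 by 1.10 (adjusted p = 0.0457 in limma). Culture 3 was the highest array of each group for SHM2 and the lowest for SER3.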

How the data were processed

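Poly(A) RNA of 6 cultures was labelled with biotin, per the labels' protocols, and hybridised to 1 array each. The authors deposited 1 linear intensity (signal) per probe set and array. Per the submitters' processing notes, MAS5 and GCOS were used, with no version, scaling target or detection calls given in the sources used here. Trimmed means of the deposited signals, without 2% at each end, ran from 192 to 500, so all 9335 probe sets were quantile normalized. Of these, 6504 carried exactly 1 gene in the platform annotation and were tested, with symbols matched by gene identifier to assembly R64.

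Values were log2(signal + 16), fitted in limma 3.58.1 (R 4.3.3) with an intensity trend, two-sided, for the group alone and for group plus culture number. All p were adjusted over the 6504. Precision depends on the number of arrays and on the fit. Without the culture number the median standard error per difference was 0.18 over all probe sets and also over the members. With it as a block the standard error was smaller for the members most tied to the number, such as ILV5 (0.11, against 0.26). The labels call the cultures separate.

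The deviations of same-numbered arrays correlated at 0.322, 0.347 and 0.346, and those of other pairs at -0.311 to 0.0751. The numbers were treated as pairs in the blocked fit. They are in the labels, but nothing there says what same-numbered cultures share. The only evidence that they pair is these correlations, read from the same values. The blocked p values rest on that pairing. The deviations are from each group's mean. Same-numbered correlations above 0 thus pull those of the other pairs down, and the contrast between them is not separate evidence. Members, gene lists, tests and the naming rule were chosen with earlier results of these data known. Named with all arrays were GCN4, isoenzyme pairs, and in each pathway the genes of largest difference and of smallest p for the number. On simulated data the group test recovered 30 of 40 probe sets changed 2-fold and 6 of 40 changed 1.5-fold. The number test recovered 3 of 40 changed 2-fold and 31 of 40 changed 4-fold. Unchanged probe sets called were 9 in the group test and 4 in the number test. Only brighter probe sets were changed, so the recovery does not cover the dim members. Noise was drawn independently for each array, unlike the correlated same-numbered arrays here, and the number effect was a shift of number 2 alone.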

Additional observations from a re-analysis of the deposited data

How the results depend on the processing

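With the culture number as a replicate block 0 members passed, as without it, and in none of the other 15 alternatives did a member pass in the group comparison. The median difference of the members, -0.06, moved to 0.0758 without between-array normalization, where 14 members lay below 0 and the median of all probe sets was 0.16. Relative to that median 26 members were lower, as in the normalized data. Under the same setting GCN4 changed sign to 0.0352. With 1 array left out the median stayed between -0.13 and -0.05, and between 22 and 28 members lay below 0. TRP2 reversed to -0.20 without both arrays numbered 2, and ranged from -0.0171 to 0.875 with 1 array left out. In the culture number test 0 members passed, against 2 with the filter at a mean signal of 50, 2 without both arrays numbered 2, and 0 to 7 with 1 array left out. Over all probe sets the same test passed 42 of 6504, 100 of 4838, 79 of 6504 and 22 to 664 of 6504. The cause of these changes was not tested. Every member had a single probe set, so the choice of probe set changed nothing. The 25 named members gave 399 values under the alternatives, of which 0 passed. SNO1 is limited by signal near the controls, and changes under 2-fold by the number of arrays.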
